A study of Mus musculus with 6 samples.

Results

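The 10 genes described here encode inositol phosphate enzymes: the targeted kinase Itpka, its paralogs Itpkb and Itpkc, the kinases Ipmk, Ippk, Itpk1, Ip6k1 and Ip6k2, and the phosphatases Inpp5a and Inpp1. They were chosen by name, and all 10 had a probe set that the array annotation pairs with 1 gene symbol, out of 22180 genes measured in this way. Where a gene had more than 1 probe set, the brightest over the 6 arrays stood for it. RNA was prepared from amygdala tissue of male mice on the C57BL/6N background, 10 to 15 weeks old, and hybridized to GeneChip Mouse Gene 2.0 ST arrays, which read most mouse transcripts with sets of short probes. The 6 arrays held 3 WT and 3 IP3K-A KO pools, the WT animals being littermates of the KO animals. The KO targets Itpka, which encodes IP3K-A, and how the allele was made is not given in the sources used here. Each pool mixed several mice, the methods name 3 litters as their source without tying a pool to a litter, and the wording of the methods does not settle whether its 6 to 8 mice refer to a pool or to a genotype. Pools are therefore the replicates in all that follows, and all values are log2 intensities. With 3 pools against 3, the smallest p of a two-sided exact permutation test is 0.1.

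IP3 is released when phospholipase C cleaves a membrane lipid, and it opens calcium channels of the endoplasmic reticulum. Cells end this signal along 2 routes, by removal of the 5-phosphate, the reaction of Inpp5a, or by addition of a phosphate at position 3, the reaction of the 3 IP3 kinases, which yields IP4. Further kinases build IP5, IP6 and the inositol pyrophosphates, and phosphatases return the lower phosphates to free inositol. IP3K-A is a neuronal enzyme of dendritic spines that also binds actin filaments.

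The tissue and its pools were checked with marker lists. Of the central amygdala markers 7 of 8 lay above the median level of all probe sets. So did 7 of 7 excitatory neuron and 7 of 7 GABAergic neuron markers, and 11356 of all 22180 genes. Among lists of other regions, 10 of 10 striatal projection neuron, 5 of 6 thalamus and 3 of 6 hypothalamic markers lay above it. These counts therefore cannot tell amygdala from other regions. Some lists varied from pool to pool. The mean log2 intensity of 7 choroid plexus markers was 8.44 in KO 1 and between 6.74 and 7.10 in the other 5 pools, and that of 8 oligodendrocyte markers was 8.77 in KO 2 and between 9.06 and 9.23 elsewhere. Of these oligodendrocyte markers 7 were lower in KO, with a median log2 fold change of −0.13. Of 10 striatal projection neuron markers, 10 were lower in KO, with list means of 9.72, 9.77 and 9.32 in the WT pools and 9.22, 9.24 and 9.66 in the KO pools. In 2 of the 12 lists the groups did not overlap, and of all genes taken singly 13.7% did not. The 7 GABAergic markers had means between 9.56 and 9.62 in WT and between 9.40 and 9.53 in KO. All 7 were lower, with log2 fold changes of −0.25 for Npy and −0.20 for Pvalb. Those of the rest, Gad1, Gad2 and Slc32a1 among them, lay between −0.09 and −0.02. Of the central amygdala markers 5 were higher and 3 lower. The 6 hypothalamic markers, 3 of them above the median level, had means between 6.47 and 6.63 in WT and between 6.33 and 6.45 in KO. Their largest differences were −0.32 for Trh and −0.27 for Pmch. The thresholds of the methods (more than 1.2-fold with p under 0.1 before adjustment) were met by limma in 3 of 8 oligodendrocyte, 3 of 7 choroid plexus, 1 of 10 striatal, 1 of 7 microglia and 1 of 6 hypothalamic markers, in 0 genes of the other 7 lists, and in 3.01% of all genes. Because the tissue was measured in bulk, fewer cells of a type and less RNA per cell cannot be told apart.

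**Figure D1:**
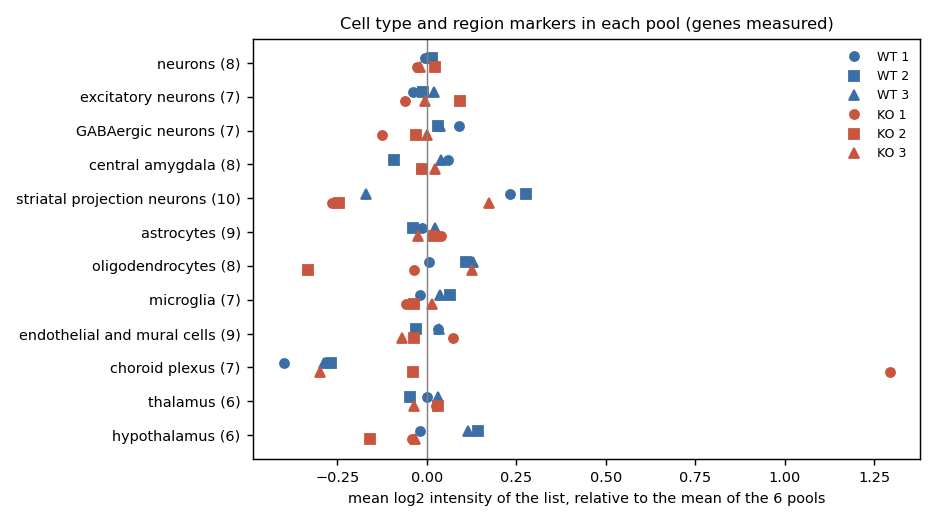
Mean log2 intensity of 12 marker lists in each pool (x axis, relative to the mean of the 6 pools), with the number of genes measured beside each name; blue symbols are WT pools, red symbols KO pools, and the symbol gives the pool number. KO 1 stands far to the right for choroid plexus markers and KO 2 to the left for oligodendrocyte markers.

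Of the 10 enzymes, Itpka was lower in KO amygdala and the other 9 did not pass the test. Itpka, which also met the thresholds of the methods, had a log2 intensity of 8.85 in WT 1, 8.90 in WT 2 and 8.96 in WT 3. It was 6.76 in KO 1, 6.95 in KO 2 and 6.96 in KO 3. The groups were far apart: the lowest WT pool lay 1.90 above the highest KO pool, while pools of 1 group spanned 0.11 in WT and 0.20 in KO. KO was lower by a factor of 4.05, with a 95% confidence interval from 3.58 to 4.57, and the log2 fold change was −2.02 (SE 0.08, limma adjusted p = 2.6e-04). No other of the 23521 probe sets tested had a change as large or a p as small. The largest rise over all genes came close in size, at a log2 fold change of 1.96. Across all genes 2 (0.00902%) passed an adjusted p under 0.05 by limma, and 1 (0.00451%) passed with a lower value in KO. The exact permutation test gave p = 0.1, the smallest possible.

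The high choroid plexus signal lay in a KO pool, and the GABAergic, striatal and oligodendrocyte markers were mostly lower in KO as well. Without KO 1 the log2 fold change of Itpka was −1.95, and the part of cell type content in the level of Itpka was not tested. For comparison, the methods' t-test gave the same difference for Itpka with an adjusted p of 0.242, and it called 0 probe sets after adjustment. Itpka kept a limma adjusted p under 0.05 whichever pool was left out, between 0.0020 and 0.0045. Where its probes lie relative to the altered part of the gene is not stated in the sources used here, so the signal that remained in KO was not assigned to transcript or to probe background.

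Itpkb and Itpkc, the paralogs of Itpka, carry out the same reaction. Itpkb is a broadly expressed enzyme known for its part in lymphocyte development, and Itpkc is a widely expressed form. Itpkb was 8.87, 8.82 and 9.01 in WT 1, WT 2 and WT 3 and 9.06, 8.80 and 8.86 in KO 1, KO 2 and KO 3. The 2 groups overlapped, with 1 high pool in each, WT 3 and KO 1. The log2 fold change was 0.0058 (SE 0.09), with a 95% interval from −0.20 to 0.21, or 0.870- to 1.16-fold. Its sign turned in 2 other fits and without WT 1, WT 2 or KO 1, so no direction is given.

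Itpkc was 7.08, 6.92 and 7.02 in the WT pools and 7.10, 7.04 and 7.06 in the KO pools. The KO pools lay close together, and WT 2 was the lowest of the 6. The log2 fold change was 0.059 (SE 0.06), with an interval from −0.09 to 0.21, or 0.939- to 1.16-fold. The limma adjusted p was 0.99 for Itpkb and 0.86 for Itpkc. For both paralogs the interval thus ended below a rise of 1.2-fold, the size that the methods set for a changed gene. For Itpkb, however, it reached past 1.2-fold in one direction or the other with the methods' t-test and without any pool but WT 1. For Itpkc it just passed a 1.2-fold rise without WT 1. The intervals bound probe signal, and Itpkc, at 6.92 to 7.10, lay not far above the array medians of 6.49 to 6.52. How much of a change in transcript would show at that level was not tested.

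**Figure D2:**
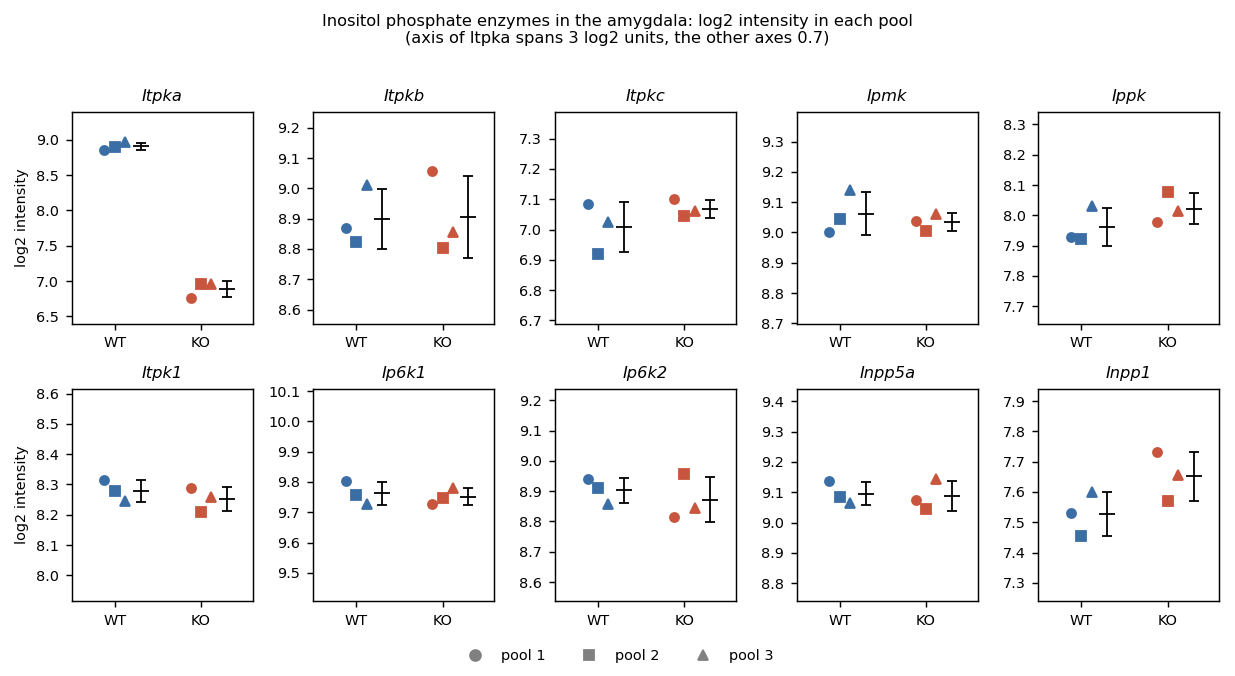
Log2 intensity (y axis) of the 10 enzymes in each WT (blue) and KO (red) pool, with the group mean and SD in black (n = 3 pools). The axis of Itpka spans 3 log2 units and the other axes 0.7; the groups are separate for Itpka, at 8.85 to 8.96 against 6.76 to 6.96, and overlap in the other 9 panels.

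Ipmk, Ippk and Itpk1 act downstream of IP3 and IP4. Ipmk, the inositol polyphosphate multikinase, adds phosphates at several positions and also acts on a membrane lipid. It was 9.002, 9.046 and 9.140 in WT and 9.039, 9.003 and 9.062 in KO, and its log2 fold change was −0.028 (SE 0.06, 95% interval −0.17 to 0.12). All KO pools lay within the range of the WT pools. A second probe set of Ipmk, less bright, averaged 6.96 in both groups. It differed by −0.0050 on the log2 scale (SE 0.10), with a wider 95% interval, from −0.23 to 0.22.

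Ippk, which adds the last phosphate that turns IP5 into IP6, was 7.93, 7.92 and 8.03 in WT and 7.98, 8.08 and 8.01 in KO. WT 1 and WT 2 were the lowest pools, while WT 3 lay among those of KO, and the log2 fold change was 0.061 (SE 0.06, 95% interval −0.09 to 0.21). Itpk1, a kinase that phosphorylates a trisphosphate isomer made from IP4, was 8.32, 8.28 and 8.24 in WT and 8.29, 8.21 and 8.26 in KO. Its pools spanned a narrow range and overlapped, with a log2 fold change of −0.027 (SE 0.06, 95% interval −0.16 to 0.11).

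Ip6k1 and Ip6k2 convert IP6 to the pyrophosphate IP7. Ip6k1 was 9.80, 9.76 and 9.73 in WT and 9.73, 9.75 and 9.78 in KO. It had the smallest SE of the 10 enzymes, and its log2 fold change was −0.011 (SE 0.06, 95% interval −0.14 to 0.12). Ip6k2, a form linked to cell death in cultured cells, was 8.94, 8.91 and 8.86 in WT and 8.81, 8.96 and 8.84 in KO. KO 2 was its highest pool and KO 1 its lowest, and the log2 fold change was −0.030 (SE 0.06, 95% interval −0.18 to 0.12).

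Of the phosphatases, Inpp5a removes the 5-phosphate of IP3 and of IP4 and is the enzyme that competes with IP3K-A for its substrate. It was 9.14, 9.09 and 9.06 in WT and 9.07, 9.04 and 9.14 in KO. The groups covered nearly the same range, and the log2 fold change was −0.0081 (SE 0.06, 95% interval −0.15 to 0.13). WT 1, WT 2 and KO 3, where Inpp5a and Ip6k1 were highest, were also the pools with the highest means of striatal markers. The other enzymes did not have this order: Itpkb and Inpp1, for example, were highest in KO 1 and Ippk in KO 2. The match was seen after the values were known, and the part of striatal tissue in these levels was not tested.

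Inpp1 removes the 1-phosphate from inositol bisphosphate and is a target of lithium. It was 7.53, 7.45 and 7.60 in WT and 7.73, 7.57 and 7.65 in KO. Of the 9 enzymes other than Itpka it showed the largest difference, and the groups overlapped only in that KO 2 lay below WT 3. The log2 fold change was 0.12 (SE 0.07, 95% interval −0.04 to 0.29), or 1.09-fold, and the interval ran past 1.2-fold. It did not pass (limma adjusted p = 0.76; exact permutation test, p = 0.2), and the value stayed between 0.08 and 0.16 when any 1 pool was left out.

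Over the 9 enzymes other than Itpka, 4 had a higher and 5 a lower mean in KO, at a median log2 fold change of −0.0081, and over all 22180 genes the median was −0.00024. By limma 0 of the 9 passed an adjusted p under 0.05 (smallest 0.76), 0 had an unadjusted p under 0.05 by limma or by the methods' t-test, and 0 met the thresholds of the methods. Across all genes 6.52% had an unadjusted limma p under 0.05 and 3.01% met these thresholds, 1.24% higher and 1.77% lower in KO. Groups overlapped in all 9 enzymes, while they did not overlap in 13.7% of all genes.

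The SE of the differences of these 9 enzymes lay between 0.06 and 0.09, with a median of 0.06, against a median of 0.08 over all genes. In 8 of the 9 the 95% interval lay wholly within 1.2-fold in either direction, Inpp1 being the exception. The same held for 49.7% of all genes, and for 68.1% of the genes whose probe set was above the median level, as those of all 10 enzymes were. With the methods' t-test the interval lay within 1.2-fold in 7 of the 9, and in 6 or 7 when 1 pool was left out. Each interval covers its own gene and is not widened for the number of genes looked at.

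**Figure D3:**
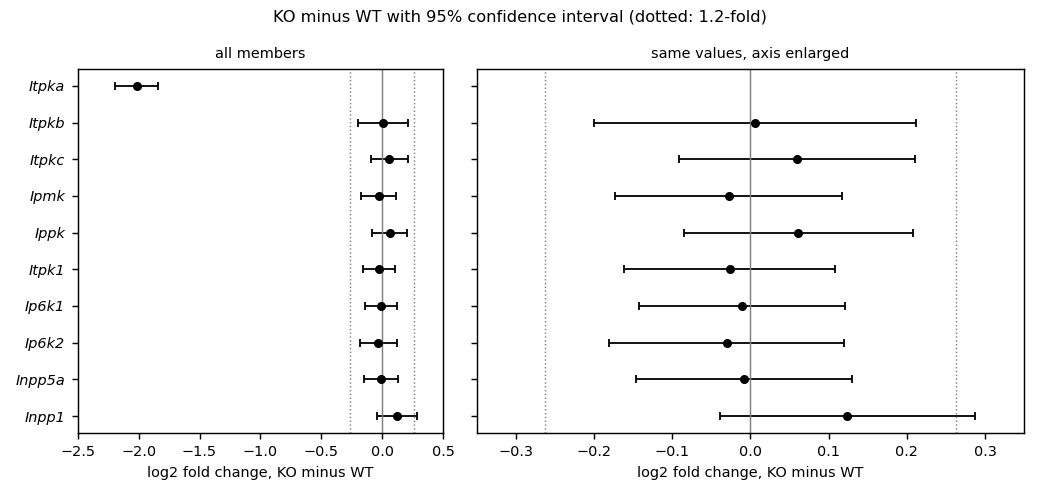
Log2 fold change, KO minus WT (x axis), of the 10 enzymes with 95% confidence intervals from limma over 3 WT and 3 KO pools; the right panel enlarges the axis around 0, and dotted lines mark 1.2-fold. Itpka lies at −2.02, and of the others Inpp1 alone has an interval that passes a dotted line.

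Other genes of inositol phosphate metabolism were read from lists set by function. Of 45 genes listed, 35 were measured on a probe set of their own, of which 19 had a higher and 16 a lower mean in KO, at a median log2 fold change of 0.01. None passed an adjusted p under 0.05 (smallest 0.73, limma), while the unadjusted p was under 0.05 for 1 of them with limma and for 2 with the methods' t-test. At the thresholds of the methods 1 passed by either test, which is 2.86%, against 3.01% of all genes by limma and 1.82% by the methods' t-test. The groups did not overlap in 7 of the 35 (20.0%), against 13.7% of all genes.

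The gene past these thresholds was Btk, a tyrosine kinase of B cells and myeloid cells whose lipid-binding domain also holds IP4. It was 5.78, 6.02 and 5.90 in WT and 5.72, 5.42 and 5.71 in KO, so that KO 2 was lowest and the groups did not overlap. The log2 fold change was −0.28 (SE 0.10, limma adjusted p = 0.73). Without WT 2 it was −0.22 and without KO 2 −0.18, and in both cases Btk no longer passed. Its probe set lay below the median level. The means of 7 microglia markers lay between 8.37 and 8.45 in WT and between 8.33 and 8.40 in KO, and their part in the level of Btk was not tested.

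In the list named inositol phosphate phosphatases, which also holds Bpnt2, Inpp4a and Inpp4b, 6 of 7 measured were higher in KO, where 49.9% of all genes were. Their median log2 fold change was 0.09, and 0 passed the thresholds. Nudt4, which cleaves inositol pyrophosphates, had the smallest p among them. It was 10.26, 10.41 and 10.39 in WT and 10.54, 10.54 and 10.44 in KO, without overlap, and its log2 fold change was 0.16 (SE 0.07, limma adjusted p = 0.74). Bpnt1, a lithium-sensitive phosphatase, was 0.09 higher (SE 0.07) with overlapping groups.

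Of 8 inositol 5-phosphatases, which act on lipids as well as on soluble phosphates, 4 were higher and 4 lower. Inpp5j was 9.35, 9.40 and 9.30 in WT and 9.17, 9.26 and 9.26 in KO, without overlap, which is −0.12 on the log2 scale (SE 0.06). Inpp5d, a phosphatase of blood cells and microglia, was at −0.16 (SE 0.09), and its groups overlapped. In the list for inositol synthesis and transport, Isyna1 and Slc5a3 were not measured on a probe set of their own, so it was covered only in part. The 4 genes measured were all lower, where 49.9% of all genes were higher, and 0 passed the thresholds. Their log2 fold changes lay between −0.16 and −0.01. Among them the inositol transporter gene Slc5a11 was 6.49, 6.51 and 6.46 in WT and 6.35, 6.42 and 6.39 in KO (log2 fold change −0.10, SE 0.06). Miox, which breaks down inositol mainly in kidney, was at −0.16 (SE 0.17) on the same scale and was 7.24 in WT 2 against 6.54 to 6.69 in the other pools, so that a single pool set its difference.

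The remaining groups lay near 0. Of 3 pyrophosphate kinases 2 were higher and 1 lower, with Ppip5k2, which turns IP7 into IP8, at a log2 fold change of 0.08 (SE 0.06) and Ip6k3, a form of muscle, at −0.05 (SE 0.07). Of 9 genes that make the lipid precursors of IP3, 5 were higher and 4 lower, all between −0.05 and 0.05. Pip5k1a, a kinase that makes the substrate of phospholipase C, was at 0.05 (SE 0.07) and the lipid kinase gene Pi4k2a at −0.05 (SE 0.06). Hdac3, a histone deacetylase whose complex binds IP4, had a log2 fold change of 0.07 (SE 0.07).

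**Figure D4:**
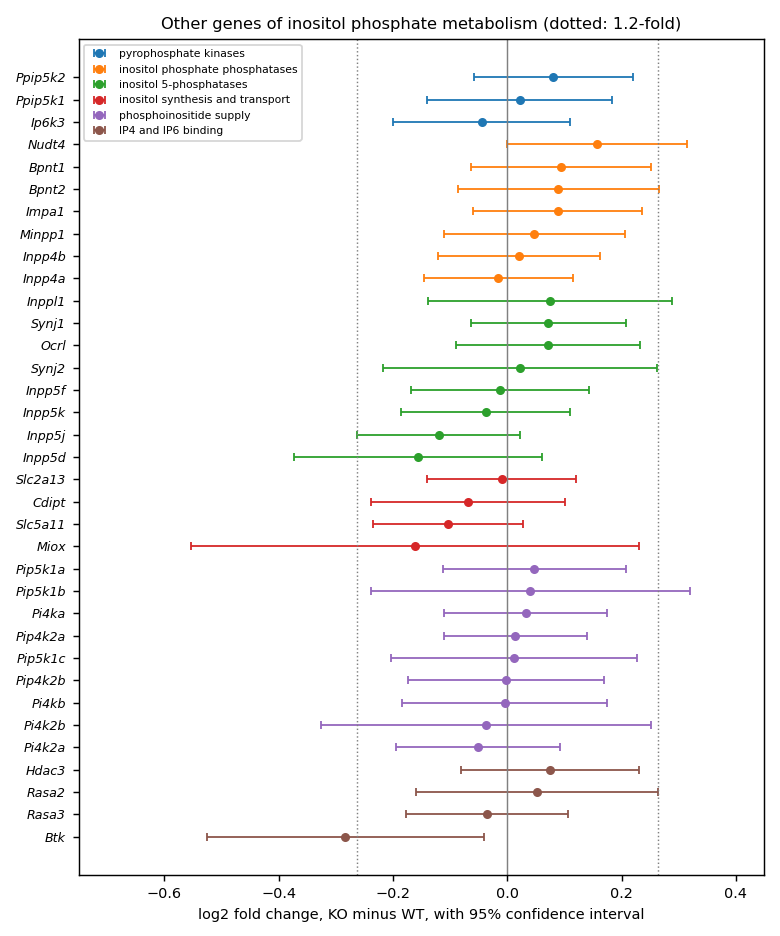
Log2 fold change, KO minus WT (x axis), with 95% confidence intervals from limma over 3 WT and 3 KO pools, for 35 other genes of inositol phosphate metabolism, colored by function; dotted lines mark 1.2-fold. Btk, at −0.28, is the gene farthest from 0, and most intervals cross 0.

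The genes whose pool profile came closest to that of Itpka were found among 11355 genes above the median level, by the root mean square difference of log2 values centered on each gene's mean. The values were not scaled, so this measure mostly follows the size of the fall in KO and little of the order of pools within a group. A profile with no change at all would differ from Itpka by 1.01, and the closest genes came to between 0.73 and 0.79. Ivd, an enzyme gene of leucine breakdown that like Itpka lies on chromosome 2, was closest (0.73). It was 8.93, 8.82 and 8.83 in WT and 8.40, 8.28 and 8.10 in KO. The others were Scgb3a1 (0.75), Commd7 (0.76), also on chromosome 2, Olfr484 (0.77) and Mir383 (0.79). The share of the 11355 genes that lie on chromosome 2 was not counted. The part of a shared chromosome in these values was not tested. Scgb3a1, a secretoglobin gene, was 9.31 in WT 1, 7.85 in WT 2 and 7.17 in WT 3 and between 6.69 and 6.89 in KO, so its WT pools were spread far more widely than those of Itpka. None of these 5 had a log2 fold change as large as that of Itpka, and none passed an adjusted p under 0.05 (limma, 0.35 for Ivd and 0.73 for the other 4). Of the other 9 inositol phosphate enzymes, none was on chromosome 2: Itpkb and Inpp1 lie on chromosome 1, Itpkc and Inpp5a on 7, Ip6k1 and Ip6k2 on 9, Ipmk on 10, Itpk1 on 12 and Ippk on 13.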

How the data were processed

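The authors deposited 1 table of log2 intensity values for 41345 probe sets on 6 arrays, made with GCOS and with RMA, which corrects for background, equalizes the arrays and merges probes into a value per set; both tools are named per the labels without a version. Values between 1.57 and 13.78 showed the log2 scale, with array medians between 6.49 and 6.52. Raw probe files were not used here, so this normalization was taken as it stands, and the number of arrays limits the precision.

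The difference KO minus WT came from limma 3.58.1 (lmFit, then eBayes; R 4.3.3) with genotype as the single term, over the 23521 probe sets that the platform annotation pairs with 1 symbol (1820 had several, 16004 are not listed), with Benjamini-Hochberg adjustment over all of them. The permutation tests used scipy 1.17.1. Genes were matched by symbol, then by synonym in the gene table of GRCm38.p6, from which chromosomes were taken. The platform table names no assembly, so no coordinates are given. All probe intensities depend on the probes, so the levels of single genes were not compared with one another. The median level of all probe sets served only as a coarse mark of brightness. Members, lists and tests were chosen with earlier results of these data known. Named were all 10 enzymes, of the other pathway genes those past the thresholds of the methods (fold change over 1.2, unadjusted p under 0.1) and the 2 with the smallest p in each function, and the 5 genes with a profile closest to Itpka. Btk and the count of intervals within 1.2-fold were put through the alternatives after the data were seen. The alternatives were the methods' t-test, a trend with robust estimation, median centering, repeated quantile normalization, brighter probe sets, all probe sets, the pool number as a block, array weights, the mean of a gene's probe sets and each pool left out. The fits were tested on simulated data. Figures were drawn with matplotlib 3.10.9.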

Additional observations from a re-analysis of the deposited data

How the results depend on the processing

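Itpka kept a log2 fold change between −2.02 and −2.01 in the 9 other fits and between −2.05 and −1.95 with 1 pool left out. With the methods' t-test its adjusted p was 0.242 (log2 fold change −2.02), so 0 of the 10 enzymes passed there, and Itpka passed in all other fits. Itpkb turned sign with repeated quantile normalization (−0.0149) and with array weights (−0.0544), and it lay between −0.0702 and 0.0613 when 1 pool was left out. Near 0, Ipmk (−0.0579 to 0.0107), Ip6k1 (−0.0281 to 0.0088) and Inpp5a (−0.0360 to 0.0132) also turned sign with a pool left out, and none of these passed the test in any fit. The 2 probe sets past an adjusted p under 0.05 became 0 with the methods' t-test, 1 above the median level and with the pool number as a block, 6 with repeated quantile normalization, 7 with median centering and with array weights, 10 with a trend and robust estimation, and 50 over all probe sets. With 1 pool left out they were 1 to 6, the most without WT 1. The 738 probe sets beyond 1.2-fold at an unadjusted p under 0.1 became 452 with the methods' t-test, 140 above the median level and 2439 over all probe sets, and 787 to 1124 with 1 pool left out, the most without WT 3. The 1 other pathway gene past these thresholds, Btk, lies below the median level, so that 0 remained there, and 0 or 1 passed with 1 pool left out (0 without WT 2 or KO 2). Same-numbered WT and KO pools deviated from their group means with correlations of −0.03, 0.09 and −0.01 across probe sets, and neither the labels nor the methods tie a pool number to a litter, so no pairing was assumed; the replicate block left the call of Itpka in place (adjusted p = 0.0068).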
